A study of Mus musculus with 8 samples.

Results

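The 4 chemokine receptor genes Ccr1, Ccr2, Ccrl2 and Cxcr4, were followed in microglia and in infiltrating macrophages of the injured mouse retina. They were taken by gene symbol from the deposited tables, and these 4 of 22558 symbols were found in all 8 libraries, each as a single row. The 8 libraries were 4 of microglia (numbered 1 to 4), the macrophages that reside in neural tissue, and 4 of infiltrating macrophages (numbered 5 to 8). Every mouse, in both groups, was Msi1-CreERT2/+; R26R-DTA/+ on a mixed background of C57BL/6 and 129, and about 5 months old. Msi1-CreERT2 is a tamoxifen-inducible Cre recombinase under the control of Msi1, and R26R-DTA is a Cre-dependent diphtheria toxin A allele. Retinas were taken on day 7 after the injury made by the toxin, so both groups came from the injured retina and an uninjured group was not analysed here. The labels do not tell what GFP in the macrophage titles marks, how cells were sorted or whether each library is a separate animal. The p-values thus rest on spread between libraries alone, and that spread may be technical. The comparison asks how recruited macrophages differ from resident microglia in the receptors by which leukocytes are guided.

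Chemokine receptors are G protein-coupled receptors that signal mostly through inhibitory G proteins and steer leukocytes along gradients of chemokines. CCR2, the receptor of Ccl2, Ccl7 and Ccl12, brings inflammatory monocytes out of the bone marrow and into injured tissue, and in the nervous system it is widely used to tell monocyte-derived cells from microglia, which carry the fractalkine receptor CX3CR1. CCR1 binds Ccl3, Ccl5 and Ccl9 among others, and is found on monocytes, macrophages and neutrophils. CXCR4 is the receptor of Cxcl12, which holds leukocytes in the marrow, and also binds Mif. CCRL2 is an atypical member that does not signal in the usual way: it binds chemerin, the product of Rarres2, and presents it to the receptor Cmklr1.

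Ccr1, Ccr2 and Ccrl2 lie on mouse chromosome 9 and Cxcr4 on chromosome 1 (build mm9). Ccr1 (ENSMUSG00000025804.4) spans 123876959 to 123883525 on the minus strand, and Ccr2 (ENSMUSG00000049103.6) 124016922 to 124023879 on the plus strand. Ccr1, Ccr1l1, Ccr3 and Ccr2 follow each other within 146.9 kb, with 8.3 kb between Ccr1 and Ccr1l1. Ccrl2 (ENSMUSG00000043953.8; 110957339 to 110959774, minus strand) lies 12.9 Mb from Ccr1, outside that group. Cxcr4 (ENSMUSG00000045382.6) spans 130484776 to 130488876 of chromosome 1, minus strand. No other annotated gene overlaps any of the 4.

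The promoter sequences show how unlike the start regions of these receptors are. Each is the RefSeq window from 250 bases before to 50 bases after a gene's start, on assembly GRCm38.p6, a later build than that of the expression tables. All are printed 5′ to 3′ on the gene's own strand, and all 4 members had an entry. Capitals mark matches on either strand to 4 motifs: the TATA box TATAAA, the core GAGGAA of sites for PU.1 (the myeloid transcription factor), the NF-kB site GGACTTTCC and the GC box GGGCGG; overlapping matches form one run of capitals.
Ccr1, chr9:123968643-123968942, minus strand: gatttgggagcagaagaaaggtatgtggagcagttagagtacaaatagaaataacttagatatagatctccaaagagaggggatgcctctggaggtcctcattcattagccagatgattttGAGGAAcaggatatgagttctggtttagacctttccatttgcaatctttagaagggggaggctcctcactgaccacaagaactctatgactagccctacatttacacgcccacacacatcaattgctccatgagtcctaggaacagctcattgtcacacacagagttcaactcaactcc
Ccr2, chr9:124101933-124102232, plus strand: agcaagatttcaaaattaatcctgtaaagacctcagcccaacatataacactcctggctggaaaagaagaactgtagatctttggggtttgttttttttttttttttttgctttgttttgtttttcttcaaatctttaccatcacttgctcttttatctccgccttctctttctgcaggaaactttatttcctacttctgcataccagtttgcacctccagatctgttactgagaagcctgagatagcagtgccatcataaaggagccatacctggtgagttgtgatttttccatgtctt
Ccrl2, the first of 3 listed starts, chr9:111057469-111057768, minus strand: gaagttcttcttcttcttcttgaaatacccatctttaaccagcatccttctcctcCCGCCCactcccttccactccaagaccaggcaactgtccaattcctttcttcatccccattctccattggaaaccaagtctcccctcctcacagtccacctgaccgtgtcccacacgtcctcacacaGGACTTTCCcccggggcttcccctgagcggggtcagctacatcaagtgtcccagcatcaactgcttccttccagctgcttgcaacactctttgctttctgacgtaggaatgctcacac
Cxcr4, chr1:128592250-128592549, minus strand: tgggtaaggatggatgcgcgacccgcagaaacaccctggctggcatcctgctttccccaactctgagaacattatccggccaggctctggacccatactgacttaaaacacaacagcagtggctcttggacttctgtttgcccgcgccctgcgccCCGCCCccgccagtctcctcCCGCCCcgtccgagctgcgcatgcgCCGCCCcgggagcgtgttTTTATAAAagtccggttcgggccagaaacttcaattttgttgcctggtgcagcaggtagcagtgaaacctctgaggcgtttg
Ccr1 and Ccr2 have 1 CG dinucleotide each, against a median of 7 over the 32841 mouse promoter windows, and 5.4% of windows have fewer. Ccrl2 has 6 and Cxcr4 has 20, with fewer in 43.6% and 73.5% of windows. GC content ran from 38.0% in Ccr2 and 44.0% in Ccr1 to 53.0% in Ccrl2 and 59.3% in Cxcr4. The Ccr1 window holds 1 PU.1 core, a motif found in 28.3% of windows, and the Ccr2 window holds none of the 4 motifs. The Ccrl2 window holds 1 NF-kB site, found in 0.344% of windows, and 1 GC box, found in 35.7%. The windows of the other 2 starts listed for Ccrl2 hold none of the 4 motifs and 8 CG dinucleotides each. The Cxcr4 window holds 3 GC boxes and 2 matches to the TATA box (present in 13.6% of windows) that overlap on opposite strands. A match of letters describes the window and says nothing of binding.

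Expression is given in FPKM, a fragment count per kilobase of transcript that is scaled to library size. FPKM summed to 296110 to 392952 per microglial library and 207154 to 512101 per macrophage library, the lowest in macrophage 7 and the highest in macrophage 6. Genes at 1 FPKM or more numbered 5957 to 9457 in microglia and 8768 to 10229 in macrophages. The labels were checked against marker lists. Summed microglial markers were 2172 to 3227 FPKM in microglia and 509.2 to 1709 in macrophages, with Sall1, a transcription factor of microglia, at 8.62 FPKM or more in microglia and at most 0.0352 in macrophages. Tmem119, another microglial marker, overlapped between the groups (179 to 339 against 106 to 364 FPKM). Summed monocyte markers were 753 to 1305 FPKM in microglia and 1603 to 4152 in macrophages. Most of that sum was Lyz2, which microglia also held (736 to 1243 FPKM against 1545 to 3335 in macrophages). Of 7 monocyte markers tested, 3 were called higher in macrophages, beside 1.68% of all tested genes, and 0 lower. Chi3l3 among them entered the test through the macrophage libraries alone, so it had to differ to be tested. Fn1 of the monocyte list had the lower mean in macrophages (26.1 against 47.4 FPKM). Y-linked RNA stood at 11.7 to 25.8 FPKM in microglia 1 to 3, at 0.0533 in microglia 4 and at 0.0107 to 1.97 in the macrophages. The part of sex in the differences between the populations was not tested. Sex and population are largely confounded here, since microglia 4 alone of the microglia was as low as the macrophages in Y-linked RNA. A fit with a term for that RNA in effect sets microglia 4 against the macrophages. Microglia 2 held the fewest detected genes, and microglia 3 held 2437 FPKM of erythroid RNA against at most 164.6 in any other library. A fit without both changed no call among the 4 receptors.

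Ccr1 had the highest level of the 4 receptors in macrophages and was low in microglia. It stood at 4.98, 0.954, 0.408 and 5.53 FPKM in microglia 1 to 4. The macrophages 5 to 8 held 91.6, 181.6, 37.8 and 83.2 FPKM. No overlap was seen: macrophage 7, the lowest of its group, was 6.84 times microglia 4, the highest of the microglia. Mean levels were 2.97 ± 2.66 and 98.6 ± 60.2 FPKM (SD, n = 4 each), a ratio of 33.2. On the log2(FPKM + 1) scale, which understates changes of low genes, the difference was 4.74 ± 0.66 (SE; 95% interval 3.38 to 6.11; limma adjusted p = 8.826e-05). Ccr1 rose in this test, and the call held in each fit without 1 library (adjusted p at most 0.002681). With the term for Y-linked RNA the difference was 3.89 and the call was lost (adjusted p = 0.09316).

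Ccr2 was nearly absent from 3 microglial libraries and varied widely among the macrophages. In microglia 1 to 4 it stood at 0.131, 0.000678, 0.00166 and 1.53 FPKM. In macrophages 5 to 8 it stood at 48.98, 52.95, 2.64 and 99.41 FPKM. At the estimated depths 1 fragment on the longest Ccr2 transcript is worth 0.00949 FPKM in microglia 2 and 0.01 FPKM in microglia 3. The values of these 2 libraries are thus below 1 whole fragment. Macrophage 7 was low and microglia 4 high for their groups; they did not overlap, but only 1.72 times lay between them. Across the macrophages the highest level was 37.7 times the lowest, whereas for Ccr1 it was 4.80 times. Macrophages 6 and 7, highest and lowest for Ccr1, also had the highest and lowest FPKM sums (512101 and 207154). Levels were not rescaled for these spreads. Means of Ccr2 were 0.417 ± 0.747 and 51.0 ± 39.5 FPKM (SD, n = 4 each), a ratio of 122.4 that rests on low microglial values. The difference was 4.60 ± 0.85 on the log2 scale (SE; 95% interval 2.84 to 6.35; limma adjusted p = 0.002338), and Ccr2 rose in this test. The call held without any 1 library (adjusted p at most 0.04064, without macrophage 6). It was lost when genes of any level were tested (adjusted p = 0.1841). A Y-linked term also removed it, at a difference of 3.07 (adjusted p = 0.6663).

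Ccrl2 was the one receptor of the 4 measured at 1 FPKM or more in every library. It stood at 2.70, 3.31, 3.69 and 11.4 FPKM in microglia 1 to 4, and macrophages 5 to 8 held 20.7, 16.0, 6.13 and 24.6 FPKM. Microglia 4 lay above macrophage 7, so the groups overlapped, although the other 3 libraries of each did not. Means were 5.29 ± 4.13 and 16.9 ± 7.99 FPKM (SD, n = 4 each), a ratio of 3.19. The difference of 1.54 ± 0.67 on the log2 scale (SE; 95% interval 0.16 to 2.93) did not pass the test over all genes (limma adjusted p = 0.2805). When libraries were weighted by how well they fitted, the difference was 1.795 and passed (adjusted p = 0.01304). That fit leaned on macrophage 5, with a weight of 6.17 against 0.25 to 1.87 for the others. It called 1072 genes, against 222 without weights. Given a Y-linked term the difference of Ccrl2 was 0.331 (adjusted p = 0.9999).

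Cxcr4 was low in both groups. It stood at 0.155, 0, 1.24 and 0.228 FPKM in microglia 1 to 4, against 3.05, 1.42, 3.86 and 2.14 FPKM in macrophages 5 to 8. All macrophages lay above all microglia, by 1.15 times at the closest, between macrophage 6 and microglia 3. Means were 0.404 ± 0.562 and 2.62 ± 1.07 FPKM (SD, n = 4 each), a ratio of 6.47. The difference of 1.39 ± 0.50 on the log2 scale (SE; 95% interval 0.35 to 2.43) did not pass the test over all genes (limma adjusted p = 0.1804). It passed in the weighted fit that leaned on macrophage 5, at 1.57 (adjusted p = 0.008158). An exact permutation test of this gene alone, two-sided, gave p = 0.02857, the smallest that 4 against 4 libraries allow.

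**Figure D1:**
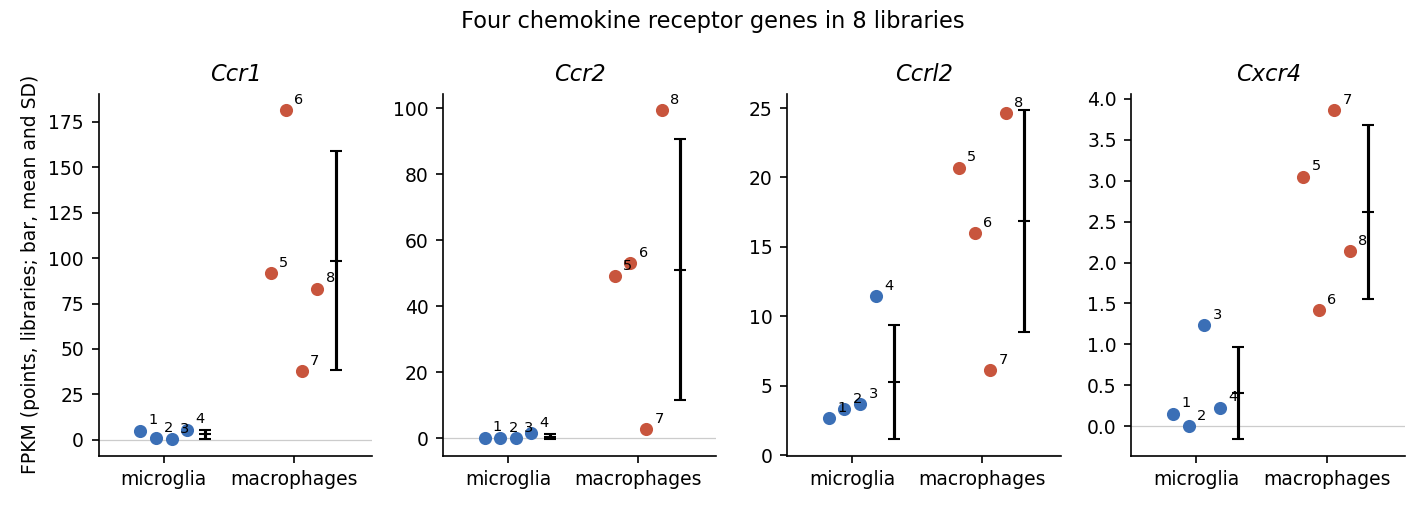
FPKM (vertical axis, linear, one scale per panel) of Ccr1, Ccr2, Ccrl2 and Cxcr4 in 4 microglial and 4 macrophage libraries; points carry library numbers, and bars give the mean and SD. Macrophage 7 is the lowest macrophage for Ccr1, Ccr2 and Ccrl2 and the highest for Cxcr4.

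Of the 4 receptors, 2 were called higher in macrophages (adjusted p below 0.05) and 0 lower, where 1.68% of the 9307 tested genes were called higher and 2.39% in either direction. The macrophage libraries lay wholly above the microglial libraries for 3 of the 4, as for 5.72% of tested genes. All 4 entered the test, which needed 1 FPKM in at least 4 libraries, but Ccr2 and Cxcr4 did so with the 4 macrophages and 1 microglial library each. A low gene of that kind had to differ to be tested. The median difference of the 4 was 3.07 on the log2 scale, beside 0.37 for all tested genes, of which 67.1% had a positive difference. That overall median moved to 0.47 when each library was given an equal FPKM sum, to 0.27 with upper-quartile factors, to 0.13 with median-of-ratios factors and to -0.03 with quantile normalization. The share of higher calls among all calls was 70.3% as reported, and 59.9%, 55.4% and 53.5% under the last 3 scalings. Ccr1 and Ccr2 were called higher under all 4 of these scalings.

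**Figure D2:**
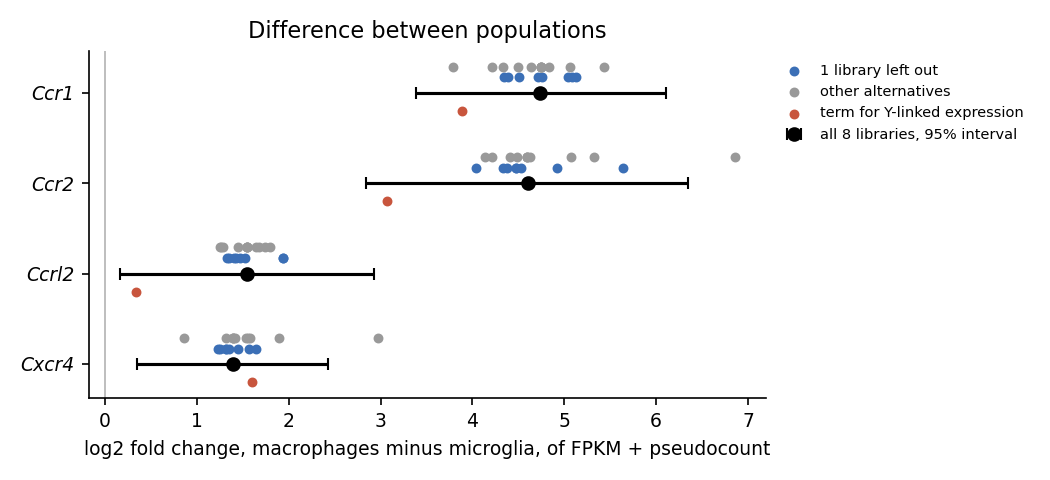
Difference of each receptor between macrophages and microglia (horizontal axis, log2(FPKM + 1), macrophages minus microglia) over all 8 libraries with its 95% interval (black). Small points are the same difference with 1 library left out (blue), with a term for Y-linked RNA (red) and under the other alternatives, among them other pseudocounts (grey), and the line at 0 marks no difference. Ccr1 and Ccr2 lie at 4.74 and 4.60, and Ccrl2 and Cxcr4 at 1.54 and 1.39.

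The macrophage libraries did not rank alike from receptor to receptor. Ccr1 was highest in macrophage 6 and Ccr2 and Ccrl2 in macrophage 8, while all 3 were lowest in macrophage 7. Cxcr4 ran the other way, highest in macrophage 7 and lowest in macrophage 6. Among microglia, library 4 was the highest for Ccr1, Ccr2 and Ccrl2, and library 3 for Cxcr4. All ranks are of FPKM without rescaling, and macrophages 6 and 7 had the highest and lowest FPKM sums.

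The make-up of the receptors shifted between the populations. Of the summed FPKM of the 4, Ccrl2 held 33.9%, 77.6%, 69.2% and 61.1% in microglia 1 to 4, and 12.6%, 6.36%, 12.2% and 11.8% in macrophages 5 to 8. Ccr1 was the largest in microglia 1 (62.5%) and in macrophages 5, 6 and 7 (55.7%, 72.1% and 75.0%). In macrophage 8 it held 39.7% and Ccr2 held 47.5%. Ccr2 otherwise held 29.8%, 21.0% and 5.23% of the sum in macrophages 5 to 7 and at most 8.18% in microglia. The Ccr2 level was 0.535, 0.292, 0.0697 and 1.19 times that of Ccr1 in macrophages 5 to 8, so that macrophage 8 was the only library with more Ccr2 than Ccr1. The summed level itself was 4.27 to 18.7 FPKM in microglia and 50.5 to 252 FPKM in macrophages.

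**Figure D3:**
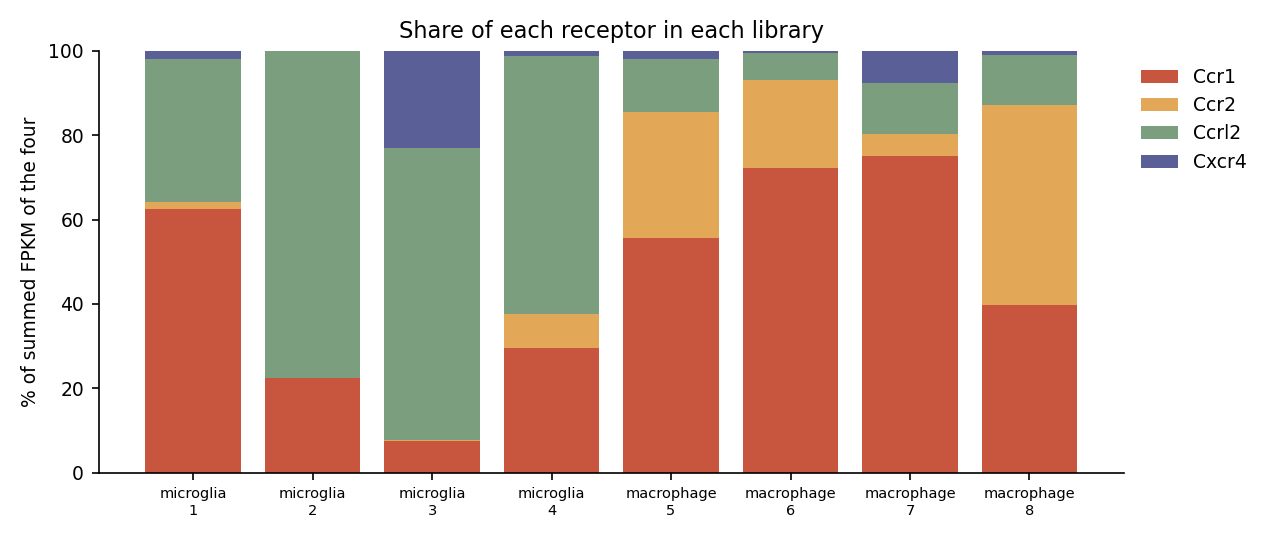
Share of each receptor in the summed FPKM of the 4 (vertical axis, percent) in each library. Ccrl2 is the largest share in microglia 2, 3 and 4, and Ccr1 or Ccr2 in every macrophage library.

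The receptors were also compared with each other in 6 pairs, as differences within a library, by two-sided exact permutation tests. With 1 FPKM added before the logarithm, these differences depend on scaling and pseudocount where a receptor is near or below 1 FPKM, as Ccr2 and Cxcr4 are in microglia. Ccr1 exceeded Ccrl2 by 1.72 to 3.42 on the log2(FPKM + 1) scale in macrophages and by -1.74 to 0.69 in microglia. That change of 3.198 between the groups had an exact p = 0.02857, and 0.05714 after adjustment over the 6 pairs. The changes of Ccr1 against Cxcr4 (3.35) and of Ccr2 against Ccrl2 (3.05) had the same exact p of 0.02857 and adjusted value of 0.05714. For Ccr2 against Cxcr4 the change was 3.21, with overlapping libraries (exact p = 0.1143, adjusted 0.1714). Ccr1 against Ccr2 changed by 0.15 (exact p = 0.8857) and Ccrl2 against Cxcr4 by 0.16 (exact p = 0.8571), and both signs turned with a pseudocount of 0.5 or less. After adjustment 0 of the 6 pairs passed, and 3 of them had the smallest p the design allows.

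Among the 19 receptor genes of the chemokine family examined, Ccr1 ranked first by mean FPKM in macrophages. Cx3cr1 followed at 62.8 ± 39.0, then Ccr2, Ccr7 at 22.4 ± 27.5 and Ccrl2 (SD, n = 4), while Cxcr4 was sixth. Across macrophage libraries each of these 6 overlapped the next in the order, except that the lowest Ccrl2 value (6.13 FPKM) was above the highest of Cxcr4 (3.86). In microglia Cx3cr1 led at 103 ± 35.1 FPKM, followed by Ccrl2 and Ccr1, with Ccr2 and Cxcr4 sixth and seventh. There the lowest Cx3cr1 value (56.2 FPKM) was above the highest of Ccrl2 (11.4), while Ccrl2 and Ccr1 overlapped. Of the 15 receptors beside the 4, 1 passed the filter on low values and it was not called: Cx3cr1 differed by -0.81 ± 0.52 (SE, limma adjusted p = 0.4819). Ccr7, the receptor that takes dendritic cells to lymph nodes, was too rarely detected to be tested: it was listed at 0 in every microglial library and at 15.8, 11.1, 0.165 and 62.4 FPKM in macrophages 5 to 8. Cxcr1 was listed at 0 throughout, and 6 of the 15 stayed below 1 FPKM in every library.

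**Figure D4:**
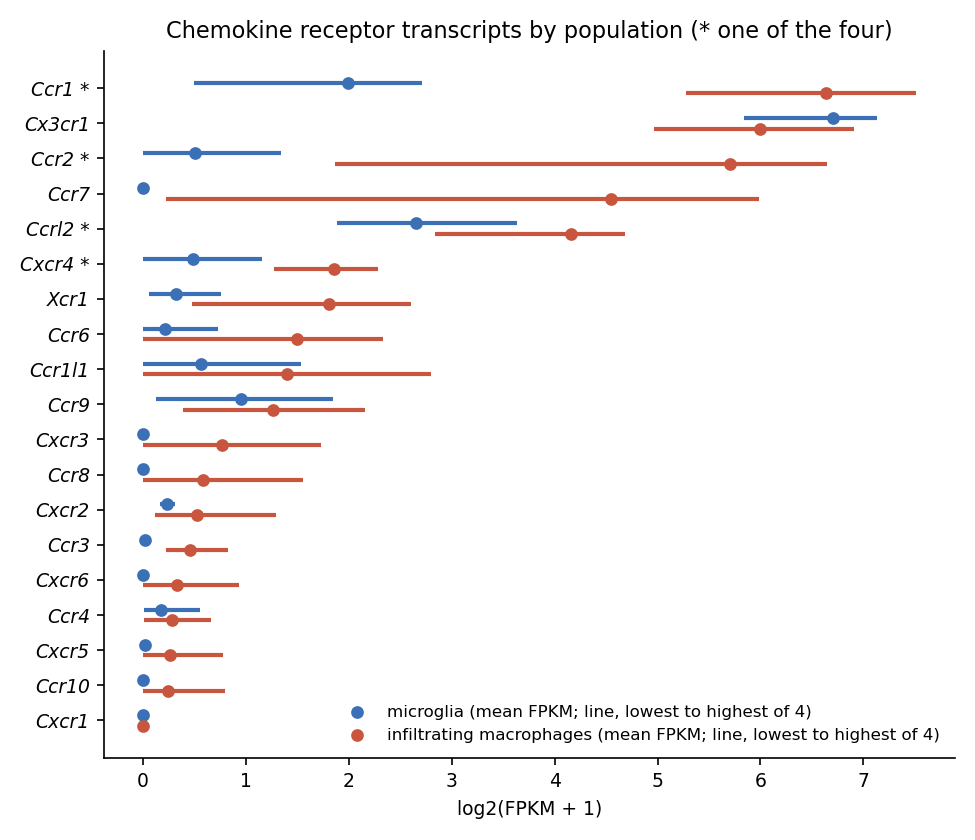
Level of the chemokine receptor genes in the 2 populations (mean FPKM on a log2(FPKM + 1) scale, with lines from the lowest to the highest library), ordered by the macrophage mean. The lines of Ccr1 are well separated between the populations, those of Ccr2 nearly meet (1.53 and 2.64 FPKM), and those of Cx3cr1 overlap.

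Set against Cx3cr1, Ccr1 kept a narrow ratio in macrophages. Ccr1 was 1.26 to 1.78 times Cx3cr1 in macrophages and 0.00402 to 0.0433 times in microglia. Ccr2 was spread more, from 0.0875 to 2.13 times Cx3cr1 in macrophages, and at most 0.011 times in microglia. These ratios separate the 2 populations in every library.

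The 8 receptor genes listed for chromosome 9 (Ccrl2, Ccr9, Cxcr6, Xcr1, Ccr1, Ccr1l1, Ccr3 and Ccr2) all had the higher mean in macrophages. The list was chosen beforehand and may not hold every chemokine receptor gene of that chromosome. The positions of the other receptors, Cx3cr1 among them, were not looked up. Most of the 19 receptors had the higher mean in macrophages, but Cx3cr1 was lower (62.8 against 103 FPKM). Nothing can thus be said of chromosome 9 against other chromosomes. Of all tested genes 67.1% had a positive log2 difference. Of the 8 listed genes, 3 passed the filter and were tested and 2, Ccr1 and Ccr2, were called higher. Ccr1l1 and Ccr3 lie between those genes. Ccr1l1 was listed at 0 in microglia 1, 2 and 3 and macrophage 5 and reached 5.96 FPKM in macrophage 6. Ccr3, a receptor of eosinophils, was untested and low, at most 0.0299 FPKM in microglia and 0.163 to 0.767 in macrophages, without overlap. Cxcr6 and Xcr1, which precede Ccr1 in the row, reached 0.902 and 5.08 FPKM.

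The 10 atypical and related receptors, which include scavengers of chemokines and the receptors of chemerin, complement and formyl peptides, held 5 tested genes, of which 0 were called (median log2 difference -0.19). The complement receptors C5ar1 and C3ar1 were abundant, at 133 ± 59.8 and 188 ± 61.7 FPKM in microglia and 66.5 ± 40.6 and 98.8 ± 56.6 in macrophages (adjusted p = 0.3937 and 0.3296). Fpr1, a receptor of formyl peptides, stood at 29.1 FPKM in microglia 4, at most 0.129 in the other microglia and 0.0373 to 7.12 in macrophages (adjusted p = 0.884). Cmklr1, the signalling receptor of chemerin, was at 1.72 to 10.4 FPKM in microglia and 0.788 to 9.87 in macrophages.

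Among the ligand genes listed, Ccl3 and Ccl4 fell in macrophages and none rose in the test. The list is wider than the ligands of the receptors followed here, and Ccl4 is not named above as a ligand of any of them. Of 12 ligands 10 were tested, 0 were called higher and 2 lower, with a median log2 difference of -1.01. Over all 9307 tested genes 156 were called higher and 66 lower. Ccl4, a chemokine of activated macrophages, was at a mean of 768 ± 220 FPKM in microglia against 154 ± 112 for macrophages (log2 difference -2.52 ± 0.50 SE, adjusted p = 0.004249). Ccl3, a ligand of Ccr1, averaged 321 ± 73.0 and 88.0 ± 60.3 (-2.02 ± 0.49, adjusted p = 0.0229), and its call was lost without microglia 1, 2 or 3 or macrophage 5, 7 or 8 (adjusted p up to 0.115). Ccl2 and Ccl12, ligands of Ccr2, averaged 552 ± 522 and 1986 ± 1114 FPKM in microglia and 362 ± 508 and 860 ± 979 in macrophages, and neither passed (adjusted p = 0.4268 and 0.1476). Cxcl12 reached at most 0.162 FPKM in any library, while Mif, a second ligand of Cxcr4, stood at 70.5 FPKM or more in all of them. Rarres2, the chemerin gene, was listed at or near 0 in every library. Messages made by other retinal cells were not analysed here.

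Among 29 genes that carry or end the signal of these receptors, 27 were tested, with a median log2 difference of 0.51. Of these 1 was called higher, beside 1.68% of all tested genes, and 0 lower. The called gene was Jak2, a kinase of cytokine signalling also linked to chemokine receptors, at 1.09 ± 1.24 FPKM in microglia against 15.1 ± 10.9 for macrophages (2.86 ± 0.73 SE, adjusted p = 0.0348). That call was lost without microglia 1 or 3 or macrophage 5, 6 or 8 (adjusted p up to 0.1846). Gnai2, the main inhibitory G protein subunit of leukocytes, averaged 110 ± 38.6 and 213 ± 101 FPKM (adjusted p = 0.4256). Rgs1 and Rgs10, regulators that shorten G protein signalling, differed by 1.78 ± 0.62 (adjusted p = 0.1536) and -0.64 ± 0.50 (adjusted p = 0.5774).

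Of 16 genes of leukocyte adhesion and exit from vessels, 13 were tested, with a median log2 difference of 0.54. Among them 2 were called higher, beside 1.68% of all tested genes, and 0 lower. Both encode integrin chains that pair with each other, and both entered the test through the macrophage libraries alone, so they had to differ to be tested. Itgb7 averaged 20.6 ± 14.5 FPKM in macrophages, stood at 0.202 in microglia 1 and was listed at 0 in the other microglia (3.96 ± 0.73 SE, adjusted p = 0.002304). Itga4, the alpha 4 chain, averaged 4.90 ± 3.11 and 0.188 ± 0.252 FPKM (2.16 ± 0.56, adjusted p = 0.03836). It was no longer called without microglia 1, 2 or 3 (adjusted p up to 0.09538). The abundant Selplg, the ligand of P-selectin, had 126 ± 53.0 FPKM in macrophages against 270 ± 27.6 for microglia (-1.19 ± 0.46, adjusted p = 0.2212). Itgam (CD11b) differed by -1.67 ± 0.53 (adjusted p = 0.1084) and Itgb2 by -0.38 ± 0.55 (adjusted p = 0.7931). None of Ccl3, Ccl4, Jak2, Itgb7 and Itga4 was called with the term for Y-linked RNA or when genes of any level were tested, and without microglia 2 and 3 Itgb7 alone of the 5 was.

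Markers of other leukocytes were read in the same libraries, since Ccr1 and Cxcr4 are also known from neutrophils and Ccr2 and Ccr7 from dendritic cells. In bulk RNA, fewer cells of a type and less RNA per cell cannot be told apart. The 7 neutrophil markers in the tables summed to 27.3 to 36.4 FPKM in microglia and to 57.5, 254.8, 149.5 and 84.6 in macrophages 5 to 8. Within that list S100a8, S100a9 and Retnlg were listed at 0 in all microglia and were called higher, and Ngp, a granule protein gene, was listed at 0 in every library. These 3 genes entered the test through the macrophage libraries alone, so they had to differ to be tested. Csf3r, the receptor of granulocyte colony-stimulating factor, made up most of the microglial sum and lay the other way without overlap, with microglia at 32.8 ± 4.62 FPKM against 12.4 ± 2.56 for macrophages (adjusted p = 0.2413). Camp, an antimicrobial peptide gene, was listed at 0 in all macrophages and reached 0.628 FPKM in microglia. Macrophage 6 was highest for these markers and for Ccr1, but macrophage 7 was second for the markers and lowest for Ccr1. The 8 dendritic cell markers, Ccr7 among them, summed to 13.8 to 53.2 FPKM in microglia and to 41.0, 76.5, 5.11 and 138.7 in macrophages 5 to 8. Most of the microglial sum was Siglech, also a microglial marker, at 11.4 to 53.2 FPKM in microglia and 0.917 to 8.89 in macrophages, and it was called lower (adjusted p = 0.02453). Macrophages 8, 6, 5 and 7 stood in that order both for the sum and for Ccr2. Flt3, a receptor of dendritic cells and their precursors, was 4.93, 4.74, 0.0242 and 24.4 FPKM in macrophages 5 to 8. The 9 T and NK cell markers summed to at most 2.69 FPKM in microglia and to 1.49 to 7.45 in macrophages. The 6 B cell markers summed to 0 to 36.7 and 4.28 to 15.3 FPKM, mostly of Cd79b. The 8 markers of eosinophils, basophils and mast cells summed to 0 to 27.6 and 1.23 to 5.71 FPKM, with Epx and Prg2 listed at 0 throughout. Stress genes summed to 173.5 to 319.6 FPKM in microglia and 302.5 to 1458 in macrophages. Of 8 tested, 2 were called higher, Hspa1a and Hspa1b, beside 1.68% of all tested genes. Photoreceptor and Müller glia markers, from other retinal cells, summed to 73.9 to 181.1 FPKM in microglia and 12.4 to 71.7 in macrophages, without overlap. Of 5 tested, 2 were called lower, Glul and Slc1a3, beside 66 of all 9307 tested genes. The part of other cells or of stress in the levels of the 4 receptors was not tested.

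The genes whose pattern was most like that of each receptor were sought among 5792 tested genes by the Pearson correlation of log2(FPKM + 1) over the 8 libraries. These values are descriptions with no test, since all genes share the libraries and the split into 2 populations. For Ccr1 the 3 most alike were Sh2d1b2 (r = 0.994), Dnmt1 (0.987) and Ints7 (0.987). For Ccr2 they were Emb (0.987), Anxa1 (0.982) and Naa25 (0.98). Anxa1, the annexin A1 gene, stood at 41.5, 45.9, 4.20 and 58.7 FPKM in macrophages 5 to 8 and at most at 0.342 in microglia, with macrophage 7 lowest as for Ccr2. For Ccrl2 they were Trp53i11 (0.993), Olfm1 (0.984) and Relt (0.98), each with microglia 4 above macrophage 7 as for Ccrl2 itself. For Cxcr4 the highest correlations were lower, with Taf1d (0.901), Apoe (0.896) and Tmem221 (0.888). Apoe, the gene of the lipid carrier apolipoprotein E, was highest in macrophage 7 (15030 FPKM), as Cxcr4 was.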

How the data were processed

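Messenger RNA of 8 libraries was analysed from tables of FPKM per gene, which the authors deposited. The submitters' processing notes name bcl2fastq 1.8.4, Cufflinks 2.1.1 and build mm9; the aligner is not given in the sources used here. Of 22558 symbols, 173 with a status other than OK in any library were left out; repeated symbols were added up. The 9307 genes that reached 1 FPKM in 4 or more libraries were tested on log2(FPKM + 1) with limma 3.58.1 (R 4.3.3; intensity trend, two-sided), with Benjamini-Hochberg adjustment over all of them; adjusted p below 0.05 is a call. Single genes and pairs used exact permutation tests, run in R 4.3.3. FPKM scales for depth and length but not for composition, and the fit was checked on simulated data. Depth, read from the commonest low FPKM value, came to 11.7 to 24.3 M fragments. Exact zeros may be failed estimates. Positions come from GENCODE for mm9. Genes named beside the 4 members were, in 5 lists, every called gene and the 3 of highest mean FPKM, and for each member the 3 most correlated genes of at least 5 FPKM; other genes of the receptor family, of the ligands and of the marker lists were named with their values known. A further receptor gene is not reported here. The members and lists were chosen with earlier results of these data known. Alternatives covered pseudocount, filter, scaling, trend, array weights, repeated symbols, a Y-linked term and left-out libraries.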

Additional observations from a re-analysis of the deposited data

Results flagged for a closer look

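Of 46 groups of 4 libraries examined (23 genes in 2 populations), 10 held a library far from the other 3. The limit used would flag about 1 in 20 groups if values were independent and normally distributed. These were FPKM without a logarithm, and the genes share the same libraries. All 10 flagged values were the highest of their group. The count of 10 can thus not be set against a chance rate. In microglia 4, Ccr2 was 1.533 FPKM against at most 0.131 in the other microglia, and Ccrl2 was 11.45 FPKM against at most 3.69. The same library held Fpr1 at 29.07 FPKM, against at most 0.129, and Itga4 at 0.5642 FPKM, against at most 0.0859. In microglia 2, the Ccr2 ligands Ccl2 and Ccl12 were 1332 and 3647 FPKM, against at most 328.9 and 1600. In macrophage 6, C5ar1 was 127.3 FPKM against at most 48.95, Ccl2 was 1122 against at most 153, and Ccl3 was 178.4 against at most 60.65. That library also had the highest FPKM sum (512101), and the part of library scale in these flags was not tested. Itgb7 was 0.2017 FPKM in microglia 1 and listed at 0 in the other microglia.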

How the results depend on the processing

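The direction of all 4 receptors was the same in every fit run. Called genes numbered 222 as reported, and 136 with a pseudocount of 0.1, 51 with no filter on low values (20312 tested), 132 with a filter of 5 FPKM, 1072 with array weights, 25 with the term for Y-linked RNA, 334 with libraries scaled to an equal sum, and 77 to 258 with 1 library left out (77 without macrophage 8, 80 without macrophage 5, 109 without macrophage 6, 147 without microglia 1). Without macrophage 6, 30.3% of calls were higher. With the term for Y-linked RNA, Ccr1 was 3.888 and Ccr2 3.073, neither called; Ccr2 with no filter was 4.597, not called. With array weights, where macrophage 5 weighed most (6.17), Ccrl2 was 1.795 and Cxcr4 1.573, both called. The exact permutation test of single genes, without adjustment, gave p = 0.02857 for Cxcr4 at 1.39 and p = 0.05714 for Ccrl2. Ccr2 and Cxcr4 could not be tested with a filter of 5 FPKM.

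The change of Ccr1 against Ccr2 was -1.435 and -0.2651 with pseudocounts of 0.1 and 0.5, and -0.508 to 0.7152 with 1 library left out. That of Ccrl2 against Cxcr4 was -1.236 and -0.2467, and -0.1713 to 0.7063. None of the 6 pairs passed after adjustment with any 1 library left out. Fpr1 (0.36 as reported) was -0.3326 with array weights, -2.72 with the Y-linked term, -0.5333 after quantile normalization, -0.8197 without microglia 2 and 3, and -0.05973 to 0.8916 with 1 library left out. Itgb2 was -0.8236 to 0.02479 with 1 library left out. The cause of these changes was not tested. Low levels limit Ccr2 and Cxcr4 in microglia, and 4 libraries a group limit every test. The part of depth in those low levels was not tested. No paired analysis was possible because the labels number the 2 populations differently. Y-linked RNA differed as well, at 11.74 FPKM or more in microglia 1 to 3 and at most 1.969 in any macrophage library. Whether any animal gave libraries of both populations was not tested.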
